A study of Mus musculus with 27 samples.

Results

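The 4 Hox gene clusters were examined in a genome-wide chromosome conformation capture (Hi-C) map of C2C12 cells, an established myoblast line derived from mouse muscle. The regions were defined by genome coordinates, with no contact value in the rule: a 4 Mb window around HoxA on chromosome 6, HoxB on chromosome 11 and HoxD on chromosome 2, and the stretch around HoxC that runs to the end of chromosome 15. In the mm9 genome cut into bins of 40 kb, the windows held 100, 100, 100 and 68 bins, which is 368 of 66382 bins, and all 368 had contacts. The Hox genes themselves, 11 in HoxA, 10 in HoxB, 9 in HoxC and 9 in HoxD, occupied 4, 5, 4 and 4 bins, or 17 bins in all. Each bin was compared with the other bins of its own chromosome.

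The C2C12 cells were wild type (WT) with no treatment named in the labels, and were grown as the embryonic fibroblasts of the same study were. Rep1 and Rep2, the 2 Hi-C libraries of this line, reached the deposited map as a single pooled matrix. No spread between replicates could therefore be measured, no test was run, and each interval given here covers counting error only. The line's identity could not be checked against muscle marker genes from contacts alone. The map held 19407744 read pairs between different bins, and 78.7% of the bin pairs with a contact rested on a single read pair. The median bin had 655.5 read pairs on chromosome 6, 682 on chromosome 11, 905 on chromosome 15 and 670 on chromosome 2.

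Hox genes encode homeodomain transcription factors that specify position along the body axis and in the limbs. They are numbered by paralogue group, and within a cluster the genes lie in the order in which they act from anterior (Hox1) to posterior (Hox13). HoxA and HoxD are known to be controlled by distant enhancers, which for HoxD lie in landscapes on both sides, and in many tissues a boundary between topologically associating domains (TADs) falls within or beside these clusters. TADs are stretches of the chromosome whose parts contact each other more than they contact the neighbouring stretch. Sites bound by CTCF, a zinc finger protein that stops loop extrusion, are common at such boundaries, and several are known within Hox clusters. HoxA has its group 13 gene on the right in the map, whereas the other 3 clusters have their group 13 gene on the left.

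In the mm9 annotation, HoxB spanned 173.9 kb (chr11:96055630-96229570), HoxC 115.7 kb (chr15:102751534-102867274) and HoxD 96.8 kb (chr2:74506367-74603200). HoxA lay in the 4 bins of chr6:52080001-52240000. HoxC ended 627.7 kb before the end of its chromosome. Because the position of CTCF-like sequence is the feature most often set beside Hox boundaries, the cluster bins were searched on both strands for the 12 letters CCANNAGGNGGC, a strict form of the CTCF core motif. HoxA held 2 matches, HoxB 4, HoxC 0 and HoxD 1. These 7 sequences are shown 5′ to 3′ on the strand of the match, with 4 flanking bases on each side, and the capitals mark the matched letters.

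HoxA, chr6:52139603-52139622, plus strand, in an intron of Hoxa3: tcaaCCAAGAGGAGGCttgg
HoxA, chr6:52192828-52192847, minus strand, in a UTR exon of Hoxa11: ttaaCCAAAAGGTGGCtgtg
HoxB, chr11:96098549-96098568, minus strand, between Hoxb13 and Hoxb9: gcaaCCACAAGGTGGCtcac
HoxB, chr11:96127185-96127204, minus strand, between Hoxb13 and Hoxb9: tgtcCCACTAGGGGGCccta
HoxB, chr11:96147504-96147523, minus strand, in a UTR exon of Hoxb7: tctcCCAAGAGGAGGCgagc
HoxB, chr11:96206088-96206107, plus strand, in an intron of Hoxb3: gcgcCCACAAGGCGGCctgg
HoxD, chr2:74553974-74553993, plus strand, within the span of Hoxd3 and in an exon of the transcript 1700109F18Rik: ttgtCCAGGAGGAGGCgctg

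A match was no rarity at this resolution, since 27.1% of all bins held one on chromosome 6, 36.5% on chromosome 11, 28.1% on chromosome 15 and 29.1% on chromosome 2. A match is a string of letters and not a measured binding site.

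HoxA was the cluster with the fewest contacts across it relative to its flanks, and it had a boundary under every setting, whose rank depended on the size of the square. The insulation score is the log2 of the contacts that cross a bin, within a square of 480 kb on each side, over the chromosome's mean; low scores mean that few contacts cross. In the HoxA bins from Hoxa3 to Hoxa13 it was -0.46 (Hoxa3 to Hoxa6), -0.51 (Hoxa6 to Hoxa11, a bin into which the annotated span of Hoxa3 also reaches) and -0.47 (Hoxa13), with 29.6% of 3640 scored bins of chromosome 6 lower than the lowest bin of the cluster. That rank moved with the size of the square, from 2.79% with 200 kb to 73.8% with 800 kb. At 480 kb it was 2.45% with absent bin pairs left out and 10.8% with the plain mean of the square. A boundary was called in 1 of the 4 bins of the cluster, the one from Hoxa3 to Hoxa6 (chr6:52120001-52160000), where boundaries took 3.49% of all scored bins of chromosome 6. Its strength was 2.00, and 67.7% of the 127 boundaries of the chromosome were weaker (19.2% with a square of 800 kb). Strength is measured on the delta, the mean score of the 320 kb on the left of a bin minus that on its right. It is the fall of the delta from its peak before the boundary to its trough after it. A boundary lay at HoxA under all 6 settings of the insulation method that were tried, though in different bins of the cluster.

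The contacts that jumped across HoxA were few. The crossing ratio compares bin pairs that join the 480 kb on the left of a cluster with the 480 kb on its right to equally distant pairs that stay on 1 side. It uses only the distances that occur in both, which for HoxA left 28 bin pairs, the shortest of those that cross. For HoxA it was 0.337, and 3.73% of 3642 positions of chromosome 6 were lower, with a median position of 1.00. Of the 340 read pairs that crossed the cluster between the 480 kb flanks, 71 lay in these 28 bin pairs. At the rate within the flanks 252 would have been counted, a ratio of 0.282 (95% counting interval 0.215 to 0.369). Read pairs, and their averages for a distance, are not corrected for bin coverage here and below. This ratio and its interval therefore differ from the 0.337 of the corrected signal. With flanks of 1 Mb the ratio of corrected signal was 0.465. Relative to the average of all bin pairs of chromosome 6 at the same distance, contacts across HoxA had a signal of 0.610 (the observed over expected ratio), against 1.24 within the left flank and 1.31 within the right.

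**Figure D1:**
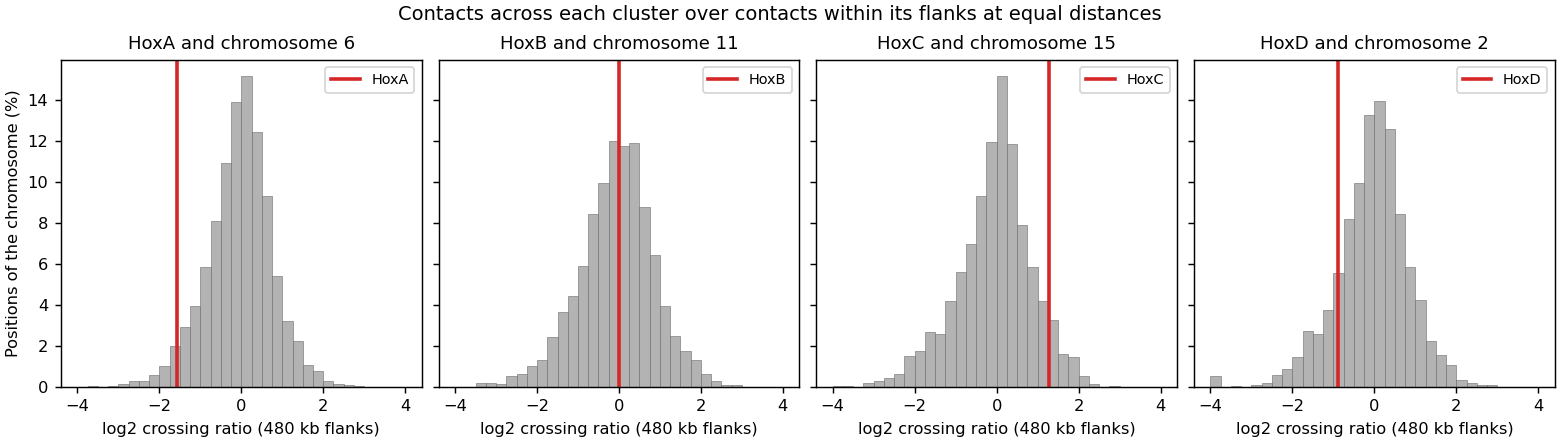
Crossing ratio of each cluster (red line) on a log2 axis against all positions of the same chromosome where it could be computed (grey bars, percent of positions, values past the axis drawn in the end bars). HoxA at a ratio of 0.337 sat in the low tail, HoxB at 1.00 in the middle, HoxC at 2.42 in the high tail and HoxD at 0.542 between the middle and the low tail.

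Single HoxA bins faced different sides. The bin of Hoxa3 to Hoxa6 had an observed over expected ratio of 2.16 with the 1 Mb to the left of the cluster and 0.408 with the 1 Mb to the right (400 and 64 read pairs), and the bin of Hoxa6 to Hoxa11 had 1.77 and 0.709 (301 and 146 read pairs). The Hoxa13 bin was the other way round, with 0.681 on the left and 2.19 on the right (70 and 388 read pairs). The log2 of right over left was -2.40 (95% counting interval -2.78 to -2.02), -1.32 (-1.61 to -1.04) and 1.68 (1.32 to 2.05) in map order, so the change of side came between Hoxa11 and Hoxa13. The Hoxa13 bin was above 97.5% and the bin of Hoxa3 to Hoxa6 above 0.389% of the windows of chromosome 6 that were compared with it. The called boundary bin, from Hoxa3 to Hoxa6, was not the bin where the side changed. In 4 of the 5 other settings the call lay further right, in the bin of Hoxa6 to Hoxa11 with a square of 320 kb or with absent bin pairs left out, and in the Hoxa13 bin with squares of 200 kb and 800 kb.

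**Figure D2:**
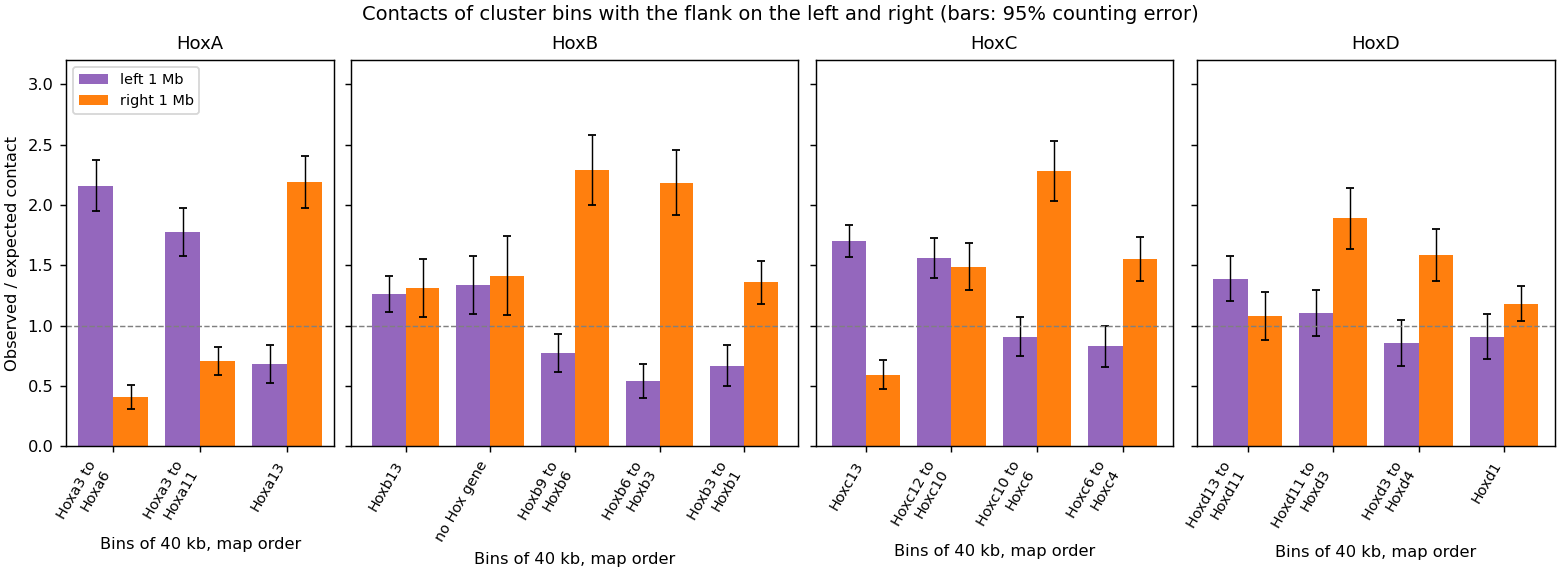
Observed over expected contact (vertical axis) of 40 kb cluster bins, in map order, with the 1 Mb to the left (purple) and to the right (orange) of the cluster, with 95% counting error bars. The Hoxa13 bin at 2.19 on the right stands against the other HoxA bins shown, which were at 2.16 and 1.77 on the left; Hoxc13 at 1.70 on the left stands against Hoxc4 to Hoxc10, and Hoxd1 at 1.18 on the right and 0.908 on the left shows a small difference.

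To the right of the bin of Hoxa3 to Hoxa6, the 2 pairs of neighbouring bins in HoxA had few contacts. The bin of Hoxa3 to Hoxa6 and the one after it shared 35 read pairs (observed over expected 0.432, above 4.87% of neighbouring bins of chromosome 6). The last 2 bins, with Hoxa11 and Hoxa13 at their facing ends, shared 24 (0.426, above 4.68%). All pairs within the cluster together were at 0.784 (280 read pairs), with 19.5% of windows lower.

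The domains that meet at the called HoxA boundary were a left one of 1600 kb, from the boundary at chr6:50520001-50560000, and a right one of 840 kb. The right one ended at a boundary of strength 2.20 in Jazf1, a zinc finger gene. It includes the cluster bins from Hoxa3 to Hoxa13, so contacts between the domains include those of these bins with the left side. The right domain was larger than 19.8% and the left one larger than 88.1% of 126 domains of the chromosome. Contacts within them were at 1.21 and 1.28 times the chromosome's average for the distance, and contacts between them at 1.00. Over 1 Mb, the cluster as a whole contacted its left side at 1.59 (1223 read pairs, above 96.0% of windows) and its right side at 1.09 (676 read pairs, above 68.4%). The left side holds 6 protein-coding genes within 1 Mb and the right side 4.

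Genes of the HoxA landscapes followed the side of the bin. Skap2, an adaptor protein gene and the nearest gene on the left, was at 2.01 with the whole cluster (481 read pairs) and at 0.747 with the Hoxa13 bin (23 read pairs). Snx10, a sorting nexin gene further left, was at 1.84 and 0.828 (62 and 5 read pairs). On the right, Hibadh, which encodes an enzyme of valine breakdown, was at 2.00 with the whole cluster and 4.63 with the Hoxa13 bin (175 and 106 read pairs). Tax1bp1, an autophagy receptor gene, was at 2.38 and 5.98 (80 and 51 read pairs), and Jazf1 at 2.03 and 4.72 (264 and 144 read pairs). The genes on the right were thus higher, and those on the left lower, with the Hoxa13 bin than with the cluster as a whole. Evx1, the homeobox gene beside Hoxa13, gave 0.468 with the whole cluster (33 read pairs) and 0.767 with the Hoxa13 bin (24 read pairs). It was the only HoxA landscape gene below the average for its distance with the cluster as a whole.

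The bin that HoxA contacted most for its distance, among those at least 200 kb away in the window, lay 960 kb to the left (chr6:51120001-51160000) and overlaps no annotated protein-coding gene. It shared 62 read pairs with the cluster (95% counting interval 47.5 to 79.5), where 4.90 were the average for the distance without coverage correction. Its observed over expected ratio, on corrected signal, was 6.23, reached at that offset by 6 of 3613 windows of chromosome 6. The bin was picked as the highest of its window and the compared windows were not, so this share overstates how rare the value is. Of the 62 read pairs, 35 were with the bin of Hoxa6 to Hoxa11, which alone had a ratio of 14.1. The bins on each side of it were at 1.94 and 2.04 (20 and 17 read pairs), so the contact was concentrated in 1 bin. The next partners were bins in Jazf1, at 3.44 and 3.10 (40 and 64 read pairs). In the Jazf1 bin at 3.44, 31 of the 40 read pairs came from the Hoxa13 bin.

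**Figure D3:**
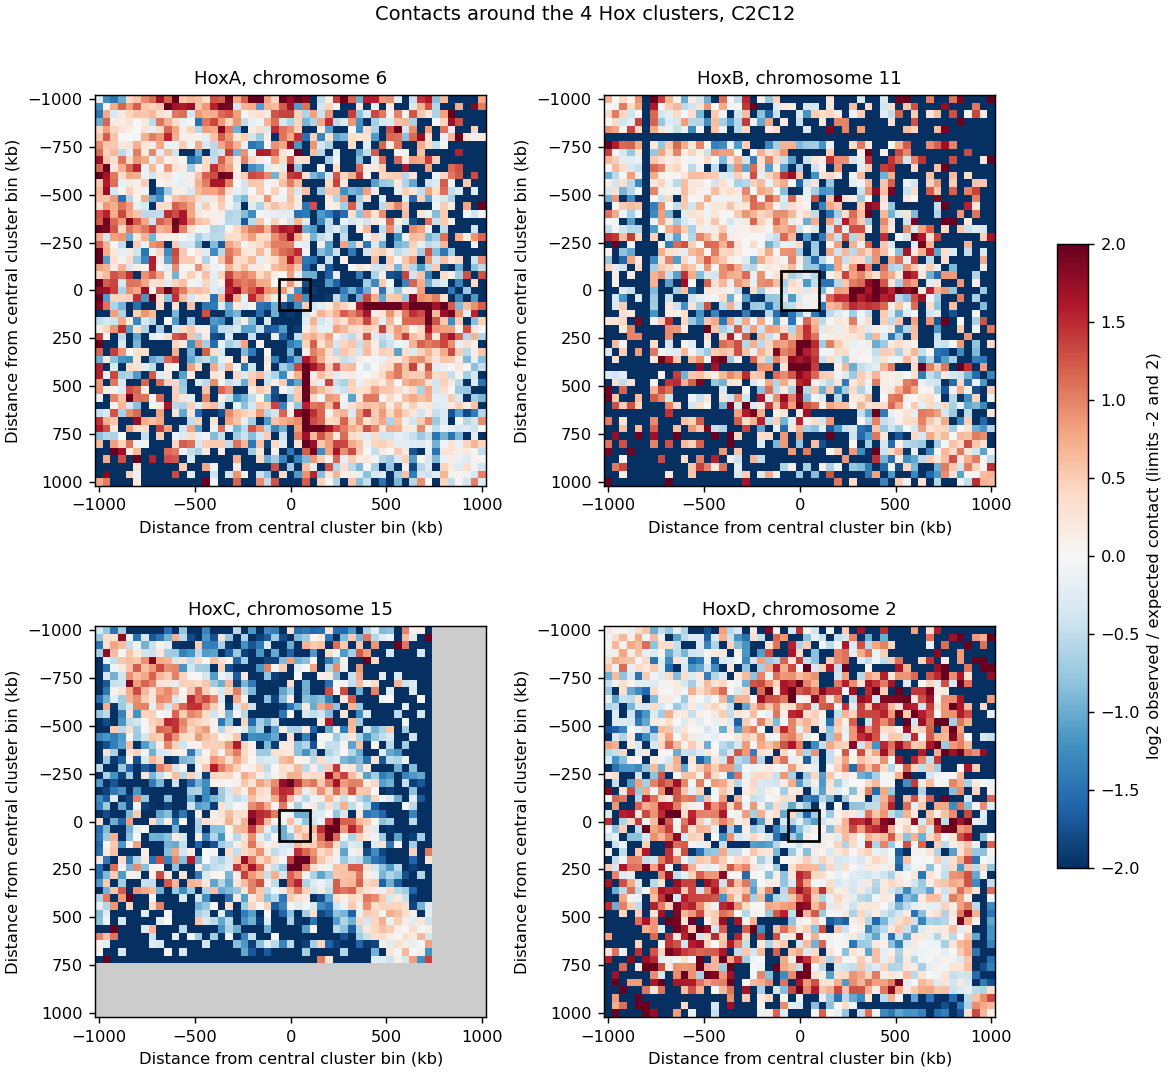
Observed over expected contact on a log2 colour scale for all pairs of 40 kb bins within 1 Mb of the central bin of each cluster (both axes in kb from that bin, the black square marks the cluster bins, bin pairs without a contact are drawn at the lower limit, grey lies past the chromosome end). Around HoxA the quadrants that join the left and the right side are mostly blue but hold red bins. The same quadrants at HoxB, HoxC and HoxD hold red bins as well. Within 480 kb, contacts across the cluster were at 0.610 of the average at HoxA, against 1.10, 0.985 and 1.11 at HoxB, HoxC and HoxD. With flanks of 1 Mb they were at 0.759 at HoxA, 0.959 at HoxB, 0.796 at HoxC and 1.24 at HoxD.

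At the square of 480 kb, HoxB lay inside a domain and not at its edge. The score in its 5 bins was 0.28 (Hoxb13), 0.34, 0.42 (Hoxb6 to Hoxb9), 0.56 (Hoxb3 to Hoxb6) and 0.67 (Hoxb1 to Hoxb3), all above the chromosome's mean, and 69.0% of 2954 scored bins of chromosome 11 were lower than the lowest of them. With a square of 200 kb the lowest score turned negative, at -0.36 (28.3% of bins lower), and with 320 kb it was 0.01 (55.7% lower). With 800 kb it was negative as well, at -0.29 (52.8% lower). Of the 5 bins, 0 were boundaries, where boundaries took 3.66% of the scored bins of the chromosome. The nearest was 680 kb to the right, in a bin with Sp6, Scrn2, Lrrc46, Mrpl10 and Osbpl7, with a strength of 2.54 (72.2% of 108 boundaries weaker). The domain that held HoxB measured 2320 kb, larger than 99.1% of 107 domains of chromosome 11. On the left the domain began 1480 kb from the cluster, at a boundary of strength 1.19 (32.4% weaker). A boundary appeared at HoxB under 1 of 6 settings, the square of 200 kb, in the Hoxb13 bin. With the square of 320 kb the nearest boundary lay 80 kb from the cluster, at a strength of 0.591 (15.9% weaker). With absent bin pairs left out it lay 600 kb away, at 0.320 (7.83% weaker). The size of the domain and the rank of its nearest boundary thus depended on the setting.

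Contacts across HoxB within 480 kb were at the chromosome's average, with a crossing ratio of 1.00 (50.6% of 2950 positions lower) and an observed over expected ratio of 1.10. With flanks of 1 Mb the crossing ratio was 1.65, and 87.0% of positions were lower. Of the 409 read pairs that crossed within 480 kb, 117 lay in the 21 bin pairs of the ratio, where 136 would have been counted at the flanks' rate, a ratio of 0.859 (0.659 to 1.12). The cluster nevertheless leaned to its right, the Hoxb1 side, at 1.71 over 1 Mb (901 read pairs, above 99.2% of windows of chromosome 11), against 0.990 on the left (610 read pairs). The number of protein-coding genes within 1 Mb was similar, with 22 on the left and 21 on the right. The lean began inside the cluster. The Hoxb13 bin had a log2 right over left of 0.06 (-0.25 to 0.37) and the bin after it, which lies in the long gap between Hoxb13 and Hoxb9, 0.08 (-0.34 to 0.50). The bins of Hoxb6 to Hoxb9 and of Hoxb3 to Hoxb6 were at 1.56 (1.22 to 1.91) and 2.01 (1.59 to 2.43), and that of Hoxb1 to Hoxb3 at 1.03 (0.62 to 1.44). These intervals do not overlap those of the Hoxb13 bin and the gap bin. The rise over the whole cluster, 0.97, was above 77.3% of windows.

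The right-hand partner of HoxB was Skap1, a T cell adaptor gene and a paralogue of the Skap2 gene beside HoxA. It filled 8 bins, at 2.67 with the cluster (566 read pairs, where 232 were the average for the distance without coverage correction). Its bin at chr11:96440001-96480000 was at 3.05 (140 read pairs), of which 50 read pairs were with the bin of Hoxb6 to Hoxb9 at 5.39. The Skap1 bin with the highest ratio, 4.48, rests on 18 read pairs and has itself only 126, fewer than all but 0.437% of the chromosome's bins. Behind Skap1, Snx11, a sorting nexin gene, was at 2.00 and Cbx1, which encodes the heterochromatin protein HP1 beta, at 1.59 (44 and 22 read pairs). On the left, Ttll6, Calcoco2 and Ube2z were at 1.11, 1.09 and 1.04 with the cluster. Each of these 3 was higher with the Hoxb13 bin than with the Hoxb1 bin, on 3 to 12 read pairs with the latter. On the right, Skap1 and Cbx1 were higher with the Hoxb1 bin, whereas Snx11 was at 1.69 with the Hoxb13 bin and 1.07 with the Hoxb1 bin (7 and 6 read pairs). At the right edge of the cluster, the Hoxb1 bin and the next bin shared 30 read pairs, at 0.374, above 2.76% of neighbouring bins of chromosome 11.

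HoxC lay within the last 1600 kb of chromosome 15 and also had 0 boundaries in its 4 bins, where boundaries took 3.81% of the scored bins. The score was 0.08 (Hoxc13), 0.07 (Hoxc10 to Hoxc12), 0.04 (Hoxc6 to Hoxc10) and -0.03 (Hoxc4 to Hoxc6), and 55.7% of 2495 scored bins were lower than the lowest of them. No boundary was called at HoxC under the 5 settings that score its bins, and the square of 800 kb could not score them. The nearest boundary was 800 kb to the left, in a bin with the translation initiation factor gene Eif4b, Tenc1 and Spryd3, and at a strength of 4.46 it was stronger than 97.9% of 95 boundaries of the chromosome. With the square of 200 kb the nearest boundary lay 320 kb away, at a strength of 0.886 (43.7% weaker). The last 12 bins of the chromosome have no score, since the square runs past its end.

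Near the HoxC cluster, contacts across it exceeded those within the flanks. The crossing ratio was 2.42, above 93.4% of 2492 positions. Its 28 bin pairs held 370 of the 699 read pairs that crossed, where 112 would have been counted at the flanks' rate. That ratio, without coverage correction, was 3.30 (interval 2.59 to 4.20), and its interval does not cover the 2.42 of the corrected signal. Over all distances within the flanks, contacts across HoxC were at 0.985 of the average and contacts within the flanks at 1.26 on the left and 1.25 on the right. The bins of the cluster again faced different sides. Hoxc13 was at 1.70 on the left and 0.593 on the right (607 and 96 read pairs), and the bin of Hoxc10 to Hoxc12 at 1.56 and 1.49 (341 and 226). The bin of Hoxc6 to Hoxc10 was at 0.906 and 2.28 (121 and 321), and that of Hoxc4 to Hoxc6 at 0.828 and 1.55 (90 and 283). In log2 the right over left ratio went from -1.52 (-1.83 to -1.21) over -0.07 (-0.31 to 0.17) to 1.33 (1.03 to 1.63) and 0.91 (0.57 to 1.25), a rise of 2.43 that was above 96.9% of 2472 windows. On the right, only 16 bins remain before the chromosome ends, where the other clusters have 25.

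Smug1, which encodes a uracil DNA glycosylase, is the nearest protein-coding gene on the right of HoxC. It had the highest value of the landscape genes, 3.76 with the whole cluster, above 99.9% of windows at its offset. It shared 287 read pairs with the cluster (interval 255 to 322), where 54.4 were the average without coverage correction. With the bin of Hoxc4 to Hoxc6 it was at 4.34 (99 read pairs) and with the Hoxc13 bin at 0.976 (21 read pairs). Cbx5, which encodes HP1 alpha, was at 2.38 (220 read pairs). Hnrnpa1, Nfe2 and Copz1, further out, were at 1.45, 1.49 and 1.56. All 5 genes on the right were higher with the Hoxc4 bin than with the Hoxc13 bin. At least 200 kb away, no partner of HoxC stood out: the highest bin, with Copz1, Gpr84 and Zfp385a, was at 1.58 (60 read pairs), a value that 12.6% of windows of chromosome 15 reached at that offset. On its left edge, the Hoxc13 bin and the bin before it shared 205 read pairs, at 2.06, above 99.2% of neighbouring bins.

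**Figure D4:**
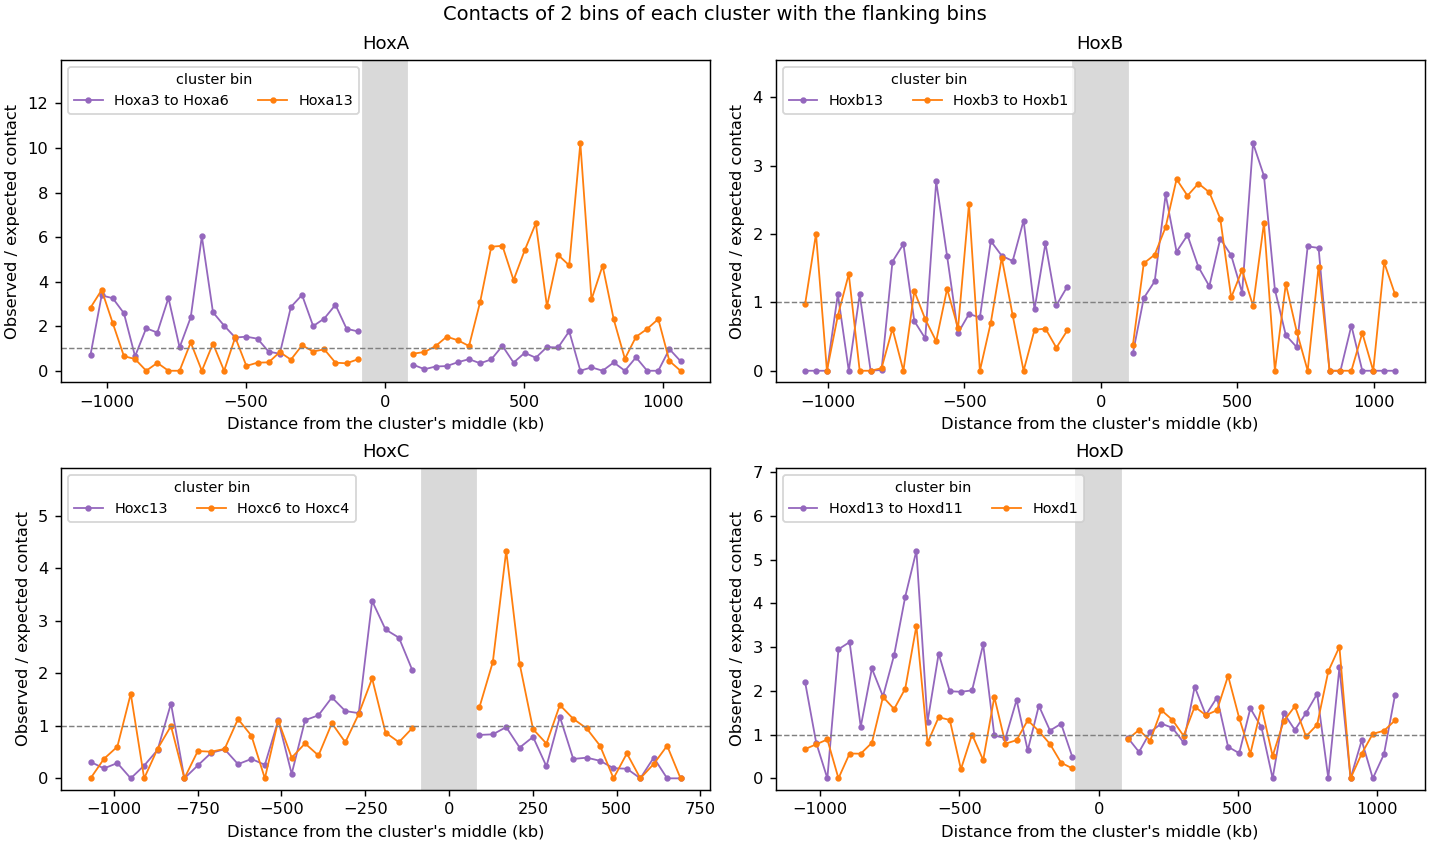
Observed over expected contact (vertical axis) of 2 bins of each cluster, the rightmost (orange) and the leftmost or, in HoxA, the bin of Hoxa3 to Hoxa6 (purple), with each 40 kb bin of the flanks (horizontal axis, kb from the cluster's middle, grey marks the cluster). The Hoxa13 bin lies above the bin of Hoxa3 to Hoxa6 across most of the right flank, reaching 10.2 in Jazf1, while the 2 HoxD curves overlap on the right and part on the left, where the Hoxd13 bin is higher.

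HoxD, well known for its paired enhancer landscapes, had a weak boundary at the square of 480 kb. Its bins scored 0.36 (Hoxd11 to Hoxd13), 0.35 (Hoxd3 to Hoxd11), 0.38 (Hoxd3 and Hoxd4) and 0.44 (Hoxd1), and 72.5% of 4431 scored bins of chromosome 2 were lower than the lowest. The lowest score turned negative with squares of 320 kb and 200 kb (-0.09 and -0.42, with 46.2% and 24.7% of bins lower) and with absent bin pairs left out (-0.03, 49.8% lower), and with 800 kb 92.0% of bins were lower. A boundary was called in 1 of the 4 bins, that of Hoxd1, where boundaries took 3.59% of scored bins. Its strength was 0.382, and 5.03% of 159 boundaries were weaker. With squares of 320 kb and 200 kb the strength was 0.755 and 0.895, with 18.8% and 37.9% of boundaries weaker. The call came back under 5 of 6 settings, in bins from Hoxd13 to Hoxd1, and was absent with the square of 800 kb, where the nearest boundary was 1120 kb away.

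Contacts across HoxD depended on how far out they were counted. Within 480 kb the crossing ratio was 0.542 (15.3% of 4425 positions lower), and its 28 bin pairs held 97 of the 516 read pairs that crossed, where 197 would have been counted at the flanks' rate (0.492, interval 0.381 to 0.636). With flanks of 1 Mb it was 1.11, and the average pair across the cluster was at 1.11 within 480 kb and 1.24 within 1 Mb. The left domain measured 1320 kb, from a boundary of strength 2.23 in Wipf1, a regulator of the actin cytoskeleton, and the right one 760 kb, up to a boundary of strength 0.719 in a bin without a protein-coding gene. These domains meet at the called boundary, so the left one includes the cluster bins from Hoxd13 to Hoxd4. Contacts between the domains, which include those of these bins with the right side, were at 1.27 of the average, above the 1.13 and 0.973 within each. For HoxA the same comparison gave 1.00 between and 1.21 and 1.28 within.

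Along HoxD the lean changed less from the first bin to the last than along HoxC. The log2 of right over left was -0.36 (-0.69 to -0.03) for Hoxd11 to Hoxd13, 0.78 (0.46 to 1.09) for Hoxd3 to Hoxd11, 0.89 (0.51 to 1.27) for Hoxd3 and Hoxd4 and 0.38 (0.04 to 0.72) for Hoxd1, a rise of 0.74 that was above 78.7% of windows, against 2.43 for HoxC. In sum the cluster was at 1.42 with its right side (802 read pairs, above 92.4% of windows) and 1.11 with its left (506 read pairs, above 67.6%). Pairs within the cluster were at 0.679 (126 read pairs), and 8.62% of windows of chromosome 2 were lower. The bin before the cluster and its first bin shared 19 read pairs, at 0.494, above 7.56% of neighbouring bins.

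In the HoxD landscapes, Lnp and Mtx2, the genes closest to the cluster on the left and right apart from Evx2, were at 0.814 and 0.885 (91 and 122 read pairs). Further left, the transcription factor gene Atf2 was at 1.68 and Atp5g3, a subunit gene of the mitochondrial ATP synthase, at 2.38, on 26 and 10 read pairs. On the right, Hnrnpa3 and Nfe2l2, the gene of the antioxidant regulator NRF2, were at 0.548 and 0.417, on 3 and 5 read pairs. Without coverage correction, the average read pairs for the distance were 19.2 for Atf2, 6.84 for Atp5g3, 5.57 for Hnrnpa3 and 10.8 for Nfe2l2. These averages all lay within the 95% counting intervals of the read pairs. Whether the corrected ratios of these genes differ from 1 was not tested. The bins contacted most were one in Pde11a, a phosphodiesterase gene, 1320 kb to the right at 3.16 (14 read pairs), and 2 bins without a protein-coding gene at 3.09 (28 read pairs, 800 kb to the right) and 2.87 (26 read pairs, 680 kb to the left). Evx2 lies within the bins of the cluster and has no value of its own.

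**Figure D5:**
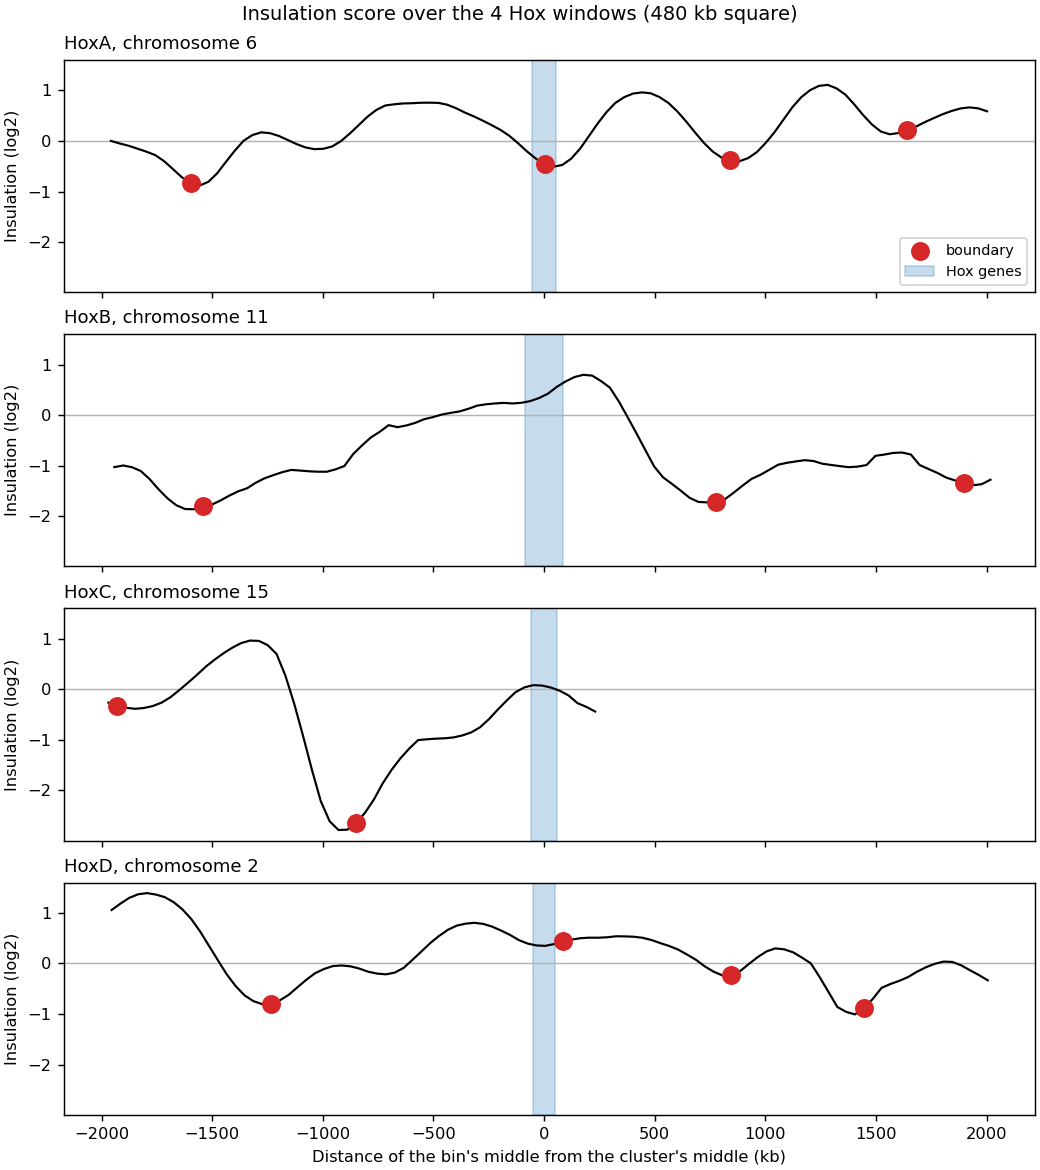
Insulation score (vertical axis, log2, square of 480 kb) of each 40 kb bin over the 4 windows, by distance from the cluster's middle in kb, with the Hox genes in blue and called boundaries in red. HoxA sits in a dip with a boundary, HoxD near a shallow one, and HoxB and HoxC on slopes or tops well inside their domains; the curve of HoxC stops before the chromosome end.

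Set side by side, the 4 windows together had 13 boundaries in 356 scored bins, 3.65%, close to the share on each of their chromosomes, with strengths of 0.382 to 4.46. The insulation ranks of the clusters overlapped once all settings were counted, with 2.45% to 73.8% of bins lower for HoxA, 28.3% to 69.4% for HoxB, 52.5% to 85.2% for HoxC and 24.7% to 92.0% for HoxD. The crossing rank ran from 2.69% to 6.52% for HoxA, 43.0% to 87.0% for HoxB, 93.4% to 97.2% for HoxC and 13.7% to 59.3% for HoxD. In HoxB, HoxC and HoxD the log2 of right over left was higher in the last bin than in the first. This rise was above 77.3% (HoxB), 96.9% (HoxC) and 78.7% (HoxD) of windows, whose medians were -0.09, -0.10 and -0.08. A rise as such is therefore common, and those of HoxB and HoxD were not extreme. In HoxA the log2 was highest in the Hoxa13 bin, although the group 13 gene is on the right in HoxA and on the left in the others. Of the 25 landscape genes with a value, 20 had a ratio over 1 with their cluster, the median was 1.56 and the range 0.417 to 3.76. At the same offsets and with as many bins, 42.3% of all windows of the same chromosome had a ratio over 1, averaged over the 25 genes (39.7% to 44.6%), and the median of the windows lay between 0.821 and 0.958. The genes were listed with earlier results of these data known. Neighbouring genes share bins, so the 25 genes stand for 56 different bins counted 64 times.

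Base composition, restriction sites and coverage of the bins were uneven. The cluster bins had a GC content of 48.0%, 48.5%, 47.5% and 47.1% in HoxA, HoxB, HoxC and HoxD, against 41.4%, 43.8%, 42.0% and 42.1% on their chromosomes. They held 862 to 1403 read pairs in the HoxA bins from Hoxa3 to Hoxa13, 483 to 993 in HoxB, 836 to 1586 in HoxC and 750 to 998 in HoxD. Within HoxA the Hoxa13 bin had 8 HindIII sites and the fewest read pairs, where the bins from Hoxa3 to Hoxa11 had 16 each. The part of these properties in the differences between bins was not tested.

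On a coarser scale, the leading eigenvector of the contact map in bins of 200 kb, with its sign set so that positive values go with GC content, divides a chromosome into compartments, of which the positive one is as a rule gene rich and active. HoxC was in the positive compartment on both of its bins (1.14 and 1.23, above 93.0% and 95.4% of chromosome 15). HoxA had 1.46 in the bin with most of the cluster (above 96.2%) and 0.17 in the bin with Hoxa13 (above 68.6%). HoxB was slightly positive (0.24 and 0.19), above 62.6% and 60.3%, and HoxD negative (-0.63 and -0.56), above 39.9% and 41.8% of chromosome 2.

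Contacts between clusters on different chromosomes could not be judged at this depth. All 6 pairs of clusters had 0 read pairs, where the mean over blocks of the same size from the same chromosomes was 0.197 read pairs for the 6 pairs in sum. A count of 0 over the 6 pairs allows up to 3 read pairs in sum as a 1-sided 95% limit, or 15.2 times that mean.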

How the data were processed

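In situ Hi-C libraries of C2C12 cells, cut with HindIII, were mapped to mm9, filtered, binned at 40 kb and corrected by iterative correction with HiC-Pro 2.7.8, per the study's methods and the submitters' processing notes. The authors deposited one matrix of corrected contact signal for the 2 pooled replicates, so the contact signal is relative to each bin's total coverage. Whole read pairs were recovered from it (99.997% of bin pairs within 0.01 of a whole number). They are not corrected for coverage and served for counting intervals (95%, Poisson, or normal on the log2 scale for ratios of sides).

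Insulation was the interquartile mean of a square of 480 kb, smoothed over 5 bins, and boundaries were falls of a 320 kb delta through 0. Expected signal was the mean per distance on the chromosome, without 6 bin pairs on chromosome 2 and 1 on chromosome 11 that each held over 5% of all contacts at their distance, a choice made after their values were seen. Ranks are shares of the same chromosome. Gene positions and sequences came from the NCBIM37 annotation and genome (22 of 22 chromosome ends equal to the bins). The functions were tested on simulated data. Python 3.11.15, NumPy 2.4.6, SciPy 1.17.1 and pandas 2.3.3 were used.

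Named genes were all 39 Hox genes with Evx1 and Evx2, the nearest protein-coding gene on each side, genes in boundary bins next to a cluster and in the 3 bins it contacted most at 200 kb or more, and a fixed list of landscape genes. The clusters, genes and settings were chosen with earlier results of these data known. Expression and ChIP-seq samples were not analysed here, and 1 gene is not reported here.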

Additional observations from a re-analysis of the deposited data

How the results depend on the processing

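The map is 1 pooled matrix, so leaving out a replicate could not be done. No paired analysis was possible because both replicates were deposited as a single matrix and no group is compared with another. Of 59 alternative values, 49 fell outside the 95% binomial (Wilson) interval of the main rank, which treats bins, boundaries or positions as independent draws, and 10 did not. Ranks are the percent of bins, boundaries or positions of the chromosome that were lower, and boundary ranks refer to the boundary at or nearest to the cluster. The cause of the shifts was not tested.

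With a square of 320 kb, the insulation rank was 9.3 (HoxA), 55.7 (HoxB), 85.2 (HoxC) and 46.2 (HoxD) and the boundary rank was 84.4 (HoxA), 15.9 (HoxB) and 18.8 (HoxD). With a square of 800 kb, the insulation rank was 73.8 (HoxA), 52.8 (HoxB) and 92.0 (HoxD) and the boundary rank was 19.2 (HoxA), 62.5 (HoxB), 77.3 (HoxC) and 92.7 (HoxD). With the plain mean of the square, the insulation rank was 10.8 (HoxA), 64.6 (HoxB), 74.0 (HoxC) and 59.7 (HoxD) and the boundary rank was 75.9 (HoxA) and 10.1 (HoxD). With absent bin pairs left out, the insulation rank was 2.45 (HoxA), 62.3 (HoxB), 52.5 (HoxC) and 49.8 (HoxD) and the boundary rank was 90.8 (HoxA), 7.83 (HoxB), 79.2 (HoxC) and 17.7 (HoxD). Ranked over all autosomes, the insulation rank was 60.5 (HoxC) and 74.8 (HoxD), the boundary rank was 59.1 (HoxA) and the crossing rank was 5.64 (HoxA) and 94.6 (HoxC). With a square of 200 kb, chosen after seeing the data, the insulation rank was 2.79 (HoxA), 28.3 (HoxB), 82.1 (HoxC) and 24.7 (HoxD) and the boundary rank was 90.2 (HoxA), 38.8 (HoxB), 43.7 (HoxC) and 37.9 (HoxD). With flanks of 1 Mb, the crossing rank was 6.52 (HoxA), 87.0 (HoxB), 95.6 (HoxC) and 59.3 (HoxD). In recovered read pairs, the crossing rank was 2.69 (HoxA), 43.0 (HoxB), 97.2 (HoxC) and 13.7 (HoxD). The square of 800 kb gave no insulation rank for HoxC, which lies too near the chromosome end. HoxA kept a boundary under every setting run and a crossing rank under 7% throughout, while its insulation rank ranged from 2.45 to 73.8.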
